A study of Mus musculus with 9 samples.

Results

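The Lrrc8 genes Lrrc8a, Lrrc8b, Lrrc8c, Lrrc8d and Lrrc8e were chosen by gene name, and all 5 of them, of 29386 gene identifiers, are listed in each of the 4 deposited tables. The data are mRNA-seq counts from 9 mouse libraries in 3 separate experiments on the loss of Setdb1, which encodes a histone H3 lysine 9 methyltransferase that silences genes and retroviral elements. In brown adipose tissue (BAT), 2 Setdb1 AKO libraries (Setdb1 fl/fl; Adipoq-Cre+) were compared with 2 control libraries (Setdb1 fl/fl; Adipoq-Cre-), so every BAT animal carried the floxed alleles and the groups differed in Cre. The titles of all 4 BAT libraries also carry the code TN_CE, whose meaning the labels do not give, so a condition that these animals shared is not known here. Adipoq-Cre is driven by an adiponectin promoter and acts in adipocytes, and other cells of the tissue keep Setdb1. In primary brown adipocytes of the genotype Setdb1 flox/flox; Rosa26Cre-ERT2, 1 library of cells given 4-OHT at 1 μM, the tamoxifen metabolite that activates Cre-ERT2, was compared with 1 library of cells given the ETOH vehicle, and both carried the floxed alleles and Cre-ERT2. 4-OHT in cells without Cre-ERT2 was not analysed here. In a further set of primary brown adipocytes, 2 siSetdb1 libraries were compared with 1 siNC library of cells given the control siRNA, and their genotype is not given in the labels. Nor do the labels say whether siSetdb1 1 and siSetdb1 2 are repeats of 1 siRNA or different siRNAs, so their spread may include that of the reagents. The age and sex of the mice, and whether libraries of 1 group came from separate animals or cultures, are not given in the labels, so p-values measure the spread between these libraries, which may be technical.

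LRRC8 proteins form the volume-regulated anion channel, which opens when a cell swells and lets chloride and small organic solutes leave so that the cell shrinks back. LRRC8A, also called SWELL1, is the obligatory subunit and assembles with at least 1 of LRRC8B, LRRC8C, LRRC8D and LRRC8E into hexamers, and the partner sets what the channel conducts. In adipocytes LRRC8A is known for activating on cell expansion and for promoting insulin signalling and fat storage.

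Lrrc8b, Lrrc8c and Lrrc8d are paralogs in 1 array on chromosome 5 of GRCm38, all on the plus strand. Lrrc8b spans chr5:105415775-105490074, Lrrc8c spans chr5:105519388-105613018 and Lrrc8d spans chr5:105699969-105832436. Lrrc8b and Lrrc8c start 103.61 kb apart, and Lrrc8c and Lrrc8d start 180.58 kb apart, with gaps of 29.3 kb and 87.0 kb between the genes. Lrrc8a spans chr2:30237715-30263790 and Lrrc8e spans chr8:4226827-4237470, each on the plus strand. The promoters of the 3 array genes are shown because Lrrc8b passed the test in BAT and its neighbours Lrrc8c and Lrrc8d did not. They are RefSeq windows of GRCm38.p6, 250 bases before to 50 bases after the start, given 5′ to 3′ on the plus strand. Capitals mark the GC box, GGGCGG or its reverse complement CCGCCC, and the CCAAT box, CCAAT or its reverse complement ATTGG, which do not overlap here.
Lrrc8b, chr5:105415525-105415824: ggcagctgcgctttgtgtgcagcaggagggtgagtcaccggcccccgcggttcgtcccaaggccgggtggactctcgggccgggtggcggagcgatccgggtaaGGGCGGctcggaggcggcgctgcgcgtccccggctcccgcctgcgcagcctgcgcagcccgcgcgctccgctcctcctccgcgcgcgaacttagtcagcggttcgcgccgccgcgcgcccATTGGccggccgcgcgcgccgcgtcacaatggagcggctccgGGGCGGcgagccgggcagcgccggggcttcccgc
Lrrc8c, chr5:105519221-105519520: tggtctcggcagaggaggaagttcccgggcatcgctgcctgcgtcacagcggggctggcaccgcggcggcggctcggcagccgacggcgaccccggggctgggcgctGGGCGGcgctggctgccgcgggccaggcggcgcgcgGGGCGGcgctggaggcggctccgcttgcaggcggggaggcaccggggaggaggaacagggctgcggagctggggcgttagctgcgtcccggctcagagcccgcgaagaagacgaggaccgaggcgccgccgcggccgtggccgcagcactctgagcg
Lrrc8d, chr5:105699719-105700018: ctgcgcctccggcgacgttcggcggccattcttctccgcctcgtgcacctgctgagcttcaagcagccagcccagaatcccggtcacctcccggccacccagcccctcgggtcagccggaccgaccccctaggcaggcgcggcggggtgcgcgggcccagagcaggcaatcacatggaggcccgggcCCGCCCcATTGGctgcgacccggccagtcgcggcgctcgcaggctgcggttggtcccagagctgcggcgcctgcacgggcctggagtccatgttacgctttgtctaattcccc

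The Lrrc8b window held 51 CG dinucleotides, more than 99.3% of the 32851 RefSeq promoter windows of the same length. Lrrc8c held 44, more than 97.75% of windows, and the printed Lrrc8d window held 31, more than 89.4%. Lrrc8a had 32, more than 90.5%, and Lrrc8e had 14, more than 63.7%, where the median of all windows was 7. Lrrc8d has another RefSeq window, chr5:105700560-105700859, with 27 CG dinucleotides, 2 GC boxes and no CCAAT box. A GC box was found in all 5 genes and in 35.7% of all windows, and a CCAAT box in Lrrc8b and in the printed window of Lrrc8d, as in 37.4% of all windows. The cyclic AMP response element TGACGTCA, read the same on both strands, was found in Lrrc8a and in 1.79% of all windows. None of the 5 held the TATA box TATAAA or its reverse complement, which 13.6% of windows held. These are matches of letters, and binding at them was not measured.

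Libraries held 15979479 to 16940622 reads on genes in BAT, 29911734 to 30176359 in the 4-OHT experiment and 17593799 to 18468152 in the siRNA experiment. Setdb1 itself checks the labels, as far as a gene-level count can, since it also counts reads from exons that Cre leaves in place. Setdb1 had 156 and 191 normalised counts in the Setdb1 AKO libraries, against 455 and 473 in the controls (log2 fold change -1.42, SE 0.19, adjusted p = 0.0216 by limma), a call lost without either control library (adjusted p = 0.225 without control 1 and 0.230 without control 2) and when low genes were not filtered (adjusted p = 0.206). It had 620 reads in the 4-OHT library, against 1070 in the ETOH library, and 371 and 399 normalised counts in the siSetdb1 libraries, against 784 in the siNC library (log2 fold change -1.02, SE 0.15, adjusted p = 0.0526 by limma). In siRNA the Setdb1 value passed by edgeR (adjusted p = 1.14e-04), DESeq2 (0.0300) and limma on TMM-scaled counts (0.00873), with a pseudocount of 5 (0.0491) or with a filter of 50 (0.00123), and the adjusted p was 0.699 with no filter. Of all genes tested 1.68% passed in BAT and 0.0394% in siRNA, and none of the 8 brown adipocyte markers, which were present in every experiment, did. Their summed level was 264170 to 370040 normalised counts in Setdb1 AKO BAT and 306210 to 321470 in control BAT. In BAT 4 of the 8 had a positive log2 fold change, and Dio2 had the smallest p. Dio2 had 12534 and 6460 normalised counts in Setdb1 AKO BAT, against 18383 and 19932 in control BAT. Its log2 fold change was -1.09 (adjusted p = 0.135 by limma). In the siRNA experiment the summed level of the 8 markers was 231740 to 233220 normalised counts in siSetdb1 cells and 234670 in siNC cells.

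Loss of Setdb1 in BAT was accompanied by a rise of 1 Lrrc8 gene, Lrrc8b, whose subunit is a partner of LRRC8A. Lrrc8b had 2888 and 2442 normalised counts in the Setdb1 AKO libraries, against 171 and 240 in the control libraries. Both knockout libraries stood far above both controls. The means were 2665 ± 316 in Setdb1 AKO BAT and 206 ± 49.4 in control BAT (SD, n = 2 each). The log2 fold change was 3.71 with SE 0.21, a 13.1-fold rise with a 95% interval of 9.35 to 18.2 (limma, adjusted p = 3.17e-04 over all 14466 genes tested). Lrrc8b was 1 gene called among the 4 Lrrc8 genes that passed the filter on low values, where 1.68% of all genes tested were called in either direction and 1% were called higher. It ranked 38 from the top by log2 fold change and 13 by p among the 14466 genes. Its rise stayed past the threshold in 11 of 12 alternative settings; with no filter on low values the adjusted p was 0.0729.

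The tissue was measured in bulk, so a change in the number of cells of a type and a change of RNA per cell cannot be told apart. Marker lists of other cell types were measured in the same libraries. Summed erythroid markers were 12932 to 13546 normalised counts in Setdb1 AKO BAT and 8228 to 9525 in control BAT, and summed mural cell markers were 7893 to 8518 in Setdb1 AKO BAT and 6475 to 6636 in control BAT, with no overlap in either list. Among single genes tested, 25.1% also had both Setdb1 AKO libraries above both controls, so such an order is common with 2 libraries a group. Of the 5 erythroid and 4 mural markers tested, none passed the test, where 1.68% of all genes tested did. Summed B and T cell markers were lower, 55.7 to 80.3 normalised counts in Setdb1 AKO BAT and 96.4 to 149 in control BAT, with 0 of 3 tested genes called. Each of the 3, Cd3e, Cd3g and Cd8a, overlapped between the groups. The share of all genes lower in both Setdb1 AKO libraries is not given here, so the order of the sums has no background beside it. Summed markers of macrophages, endothelial cells, fibroblasts and preadipocytes, and skeletal muscle overlapped between the groups. All 7 fibroblast and preadipocyte markers had a positive log2 fold change, with a median of 0.17 beside 0.01 over all genes. Of these, Pi16, a marker of adventitial fibroblasts, passed the test, with 229 and 562 normalised counts in Setdb1 AKO BAT, against 63.3 and 36.5 in control BAT (log2 fold change 2.87, SE 0.45, adjusted p = 0.0327 by limma). The Pi16 call was lost without Setdb1 AKO 2, control 1 or control 2 (adjusted p = 0.0888, 0.194 and 0.279) and with no filter on low values (adjusted p = 0.256). The part of these cell types in the Lrrc8b result was not tested.

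In the 4-OHT experiment Lrrc8b was again the Lrrc8 gene with the largest ratio. It had 1567 reads in the 4-OHT library, against 644 in the ETOH library, and 1596 normalised counts in 4-OHT cells, against 632 in ETOH cells. The ratio was 2.52, with a 95% interval of 2.30 to 2.77 that covers counting error only (exact conditional binomial), since there is 1 library a group and no test of the treatment. The log2 ratio of 1.33 placed Lrrc8b at rank 81 from the top among 13969 genes, of which 1.28% were at least 2-fold higher in the 4-OHT library. All 7 macrophage markers were lower in the same pair, with a median log2 ratio of -0.60 beside 0.01 over all genes and a summed level of 55523 normalised counts in 4-OHT cells, against 97122 in ETOH cells. Cd163, a macrophage scavenger receptor, had a log2 ratio of -1.35. Of 5 fibroblast and preadipocyte markers measured, 4 were lower, with a summed level of 326220 in 4-OHT cells and 356190 in ETOH cells, and Dcn, a matrix proteoglycan, had a log2 ratio of -1.18. The 8 brown adipocyte markers had a median log2 ratio of 0.36 and summed to 246280 normalised counts in 4-OHT cells, against 193220 in ETOH cells. The part of these cell types in the Lrrc8b ratio was not tested.

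In the siRNA experiment Lrrc8b had 361 and 544 normalised counts in the siSetdb1 libraries, against 202 in the siNC library. Both siSetdb1 libraries were above the siNC library, an order that 34.1% of all genes tested also showed. The fitted ratio was 2.18 with a 95% interval of 1.55 to 3.08 (log2 fold change 1.13, SE 0.23). Its limma p of 3.85e-04 did not pass the adjustment over 15224 genes (adjusted p = 0.232). This fit called 6 genes, 0.0394% of those tested, and it has 1 residual degree of freedom, with the siNC library assumed to vary like the siSetdb1 libraries. By edgeR's quasi-likelihood test on the recovered reads the adjusted p was 0.00211, and by limma with a filter of 50 normalised counts it was 0.00887; over all alternatives it lay between 0.00211 and 0.734. Summed macrophage markers were 349 and 397 normalised counts in the siSetdb1 libraries and 767 in the siNC library, and their part in the result was not tested.

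**Figure D1:**
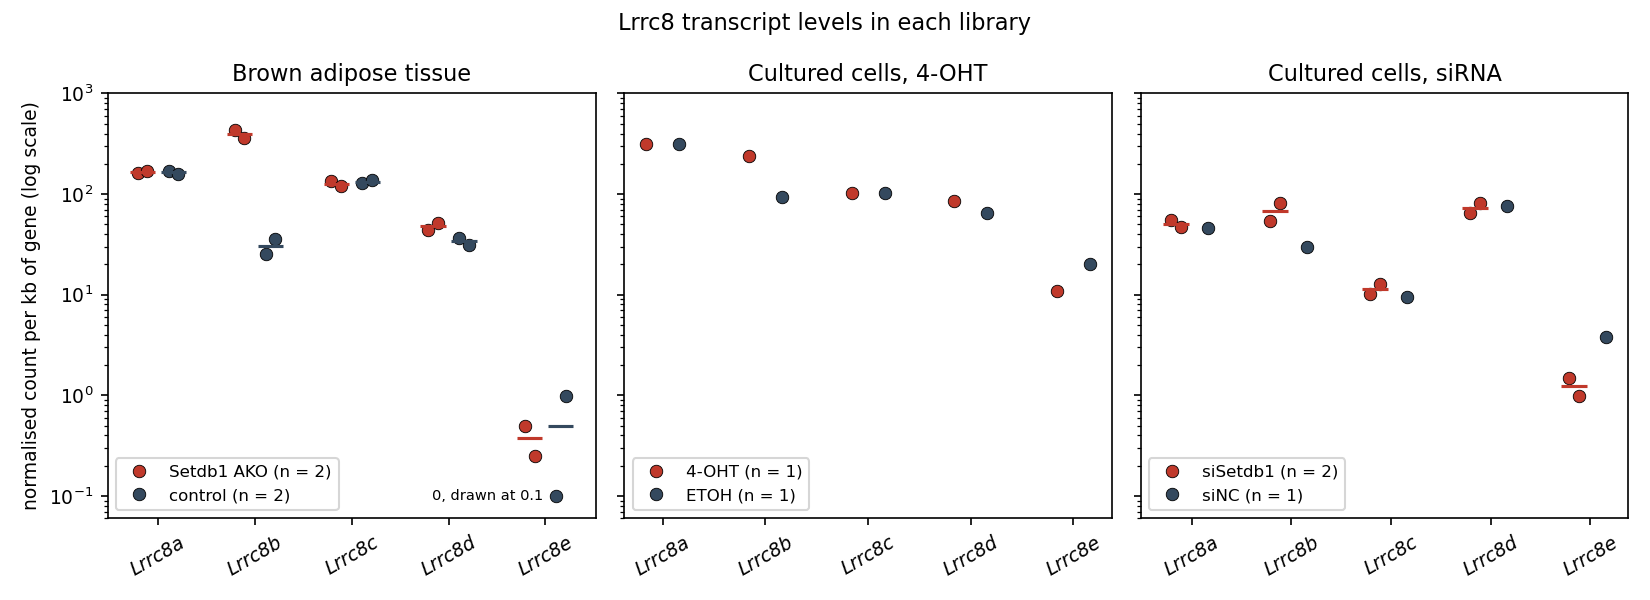
Normalised count per kb of gene on a log axis for each Lrrc8 gene in each library; points are libraries and short lines are means where a group has more than 1 library. Lrrc8b stood at 429 and 363 in the Setdb1 AKO libraries, against 25.4 and 35.7 in the control libraries, while the libraries of the 2 groups overlapped for Lrrc8a and Lrrc8c and lay near each other for Lrrc8d; Lrrc8e was listed at 0 in control 1, which is drawn at 0.1.

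Across the experiments, Lrrc8b was higher in both Setdb1 AKO libraries than in both controls and at least 2-fold higher there, at least 2-fold higher in the 4-OHT library, and higher in both siSetdb1 libraries than in siNC. Of 12215 genes measured in all 3 experiments, 29 (0.237%) met these criteria. In the authors' deposited tables the log2 fold changes of Lrrc8b were 3.70 in BAT (adjusted p = 2.23e-51), 1.34 in the 4-OHT experiment (adjusted p = 0.267), 0.83 for siSetdb1 1 (adjusted p = 1) and 1.43 for siSetdb1 2 (adjusted p = 0.631), with the last 3 made from 1 library a group.

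**Figure D2:**
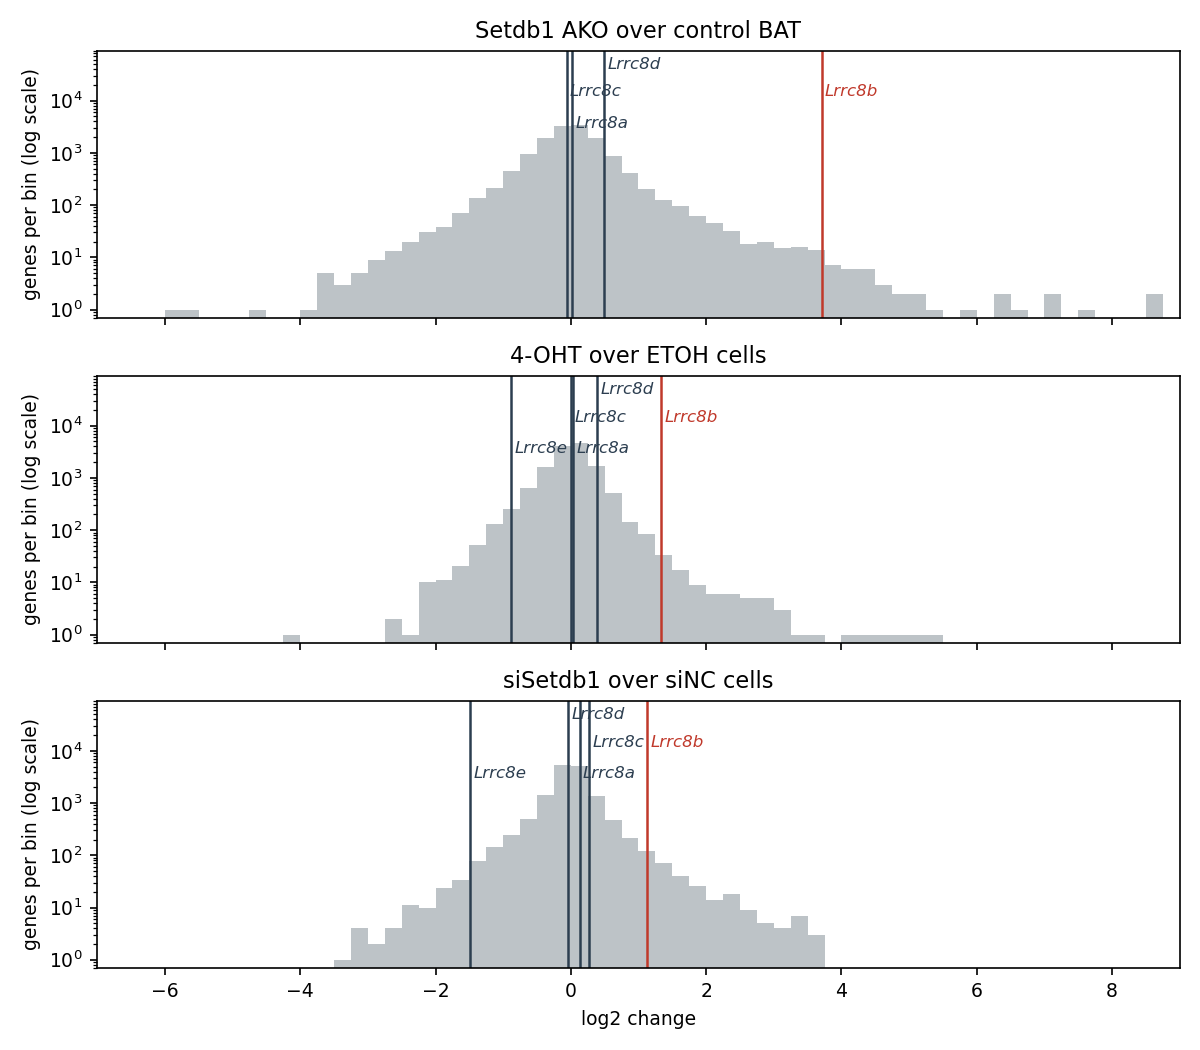
Number of genes per bin of log2 change, on a log axis, in each experiment, with vertical lines at the Lrrc8 genes (Lrrc8b in red). Lrrc8b stood at 3.71, 1.33 and 1.13 in BAT, 4-OHT and siRNA, in the upper tail of each distribution, and Lrrc8a and Lrrc8c stood near the centre in BAT and 4-OHT.

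Lrrc8a, the obligatory subunit, did not pass the test in either experiment that had one. It had 699 and 735 normalised counts in Setdb1 AKO BAT, against 738 and 682 in control BAT, so the groups overlapped. The log2 fold change was 0.01 (SE 0.15, adjusted p = 0.975 by limma), and the 95% interval of the ratio ran from 0.790 to 1.29. In cells it had 1346 reads in the 4-OHT library, against 1369 in the ETOH library (ratio 1.02 after scaling, 95% counting interval 0.945 to 1.10). In siSetdb1 cells it had 238 and 202 normalised counts, against 200 in siNC cells (adjusted p = 0.955 by limma). Counts of Lrrc8a are less certain than those of Lrrc8b: of its transcripts' 31-base words, 67.6% also occur in another gene, mostly the overlapping Gm28035, and how such reads were counted is not given in the sources used here. No 31-base word of Lrrc8b occurs in another annotated gene, none is shared between Lrrc8 genes, and no annotated gene overlaps Lrrc8b.

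Lrrc8c, a partner subunit first described in fat cell differentiation and the nearest downstream gene of the array, likewise did not pass the test. It had 1024 and 914 normalised counts in Setdb1 AKO BAT, against 976 and 1047 in control BAT, with the groups overlapping (log2 fold change -0.06, SE 0.15, adjusted p = 0.869 by limma). The 95% interval of the ratio was 0.749 to 1.22. Its counts were 772 in the 4-OHT library, against 799 in the ETOH library, a ratio of 1.00 after scaling (95% counting interval 0.907 to 1.11). Its normalised counts were 78.0 and 97.8 in siSetdb1 cells, against 72.0 in siNC cells (adjusted p = 0.952 by limma).

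Lrrc8d, the partner whose channels conduct larger organic solutes, had 554 and 647 normalised counts in Setdb1 AKO BAT, against 461 and 394 in control BAT. Both Setdb1 AKO libraries were above both controls, as for 25.1% of all genes tested. The means were 600.2 ± 66.0 in Setdb1 AKO BAT and 428 ± 47.9 in control BAT (SD, n = 2 each). The log2 fold change of 0.49 (SE 0.18) had an unadjusted limma p of 0.0262, a level that 17.7% of genes reached, and an adjusted p of 0.211, so it did not pass. Its 95% interval as a ratio was 1.05 to 1.87, below that of Lrrc8b. In 4-OHT cells it had 1055 reads, against 833 in ETOH cells (ratio 1.31, 95% counting interval 1.199 to 1.441). In siSetdb1 cells it had 824 and 1023 normalised counts, which lie on either side of the 948 in siNC cells (adjusted p = 0.978 by limma).

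Lrrc8e, a partner subunit best known from epithelia and from transport of the cyclic dinucleotide cGAMP, was close to the limit of detection in BAT, with 2 and 1 reads in the Setdb1 AKO libraries, against 0 and 4 in the control libraries. It did not pass the filter on low values there and was not tested. It had 44 reads in the 4-OHT library, against 86 in the ETOH library (ratio 0.531, 95% counting interval 0.360 to 0.772). With the prior count of 2 the log2 ratio of Lrrc8e was -0.88, short of 2-fold. It had 6 and 4 reads in the siSetdb1 libraries, against 16 in the siNC library (log2 fold change -1.49, SE 0.91, adjusted p = 0.941 by limma). Lrrc8e was therefore lower in each of the 3 cell libraries with Setdb1 reduced than in its control library, and it passed no test. In the siRNA experiment alone 33.8% of genes tested also showed that order, with 1 siNC library as the control of both siSetdb1 libraries. The share of genes lower in all 3 is not given here.

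By these counts, Lrrc8b was the largest component of the Lrrc8 transcripts in Setdb1 AKO BAT and a minor one in control BAT. The shares, sums and ranks given here and below carry the doubt about the counts of Lrrc8a. How reads shared with Gm28035 were counted is not given, so the order of Lrrc8a and Lrrc8b is uncertain. Levels were divided by gene length to compare genes within a library, and each gene was expressed as a share of the summed Lrrc8 level. The length covers all annotated exons of a gene, so a gene expressed mainly as a shorter transcript would be understated. Lrrc8d has 10 annotated transcripts over 12573 bases, and Lrrc8b has 1 over 6726 bases. Lrrc8b made up 55.8% and 51.5% of this level in the Setdb1 AKO libraries, against 7.03% and 9.85% in the control libraries. The difference was 45.2 percentage points, and the exact two-sided permutation p of 0.333 is the smallest that 2 against 2 libraries allow. Lrrc8a averaged 22.6% ± 2.2 in Setdb1 AKO BAT and 45.5% ± 2.8 in control BAT (SD, n = 2 each). Lrrc8c averaged 17.2% ± 0.30 in Setdb1 AKO BAT and 36.5% ± 1.7 in control BAT, and Lrrc8d averaged 6.51% ± 1.1 in Setdb1 AKO BAT and 9.39% ± 1.1 in control BAT. These lower shares accompany levels that did not pass the test, since shares add to a fixed whole.

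The summed level per kb was 769.9 and 705 normalised counts in the Setdb1 AKO libraries, against 361 and 363 in the control libraries, a ratio of 2.04. Without Lrrc8b the ratio of the sums was 1.03. In the cells the ratio of the sums was 1.27 in 4-OHT and 1.24 in siRNA, and 1.03 and 1.02 without Lrrc8b.

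By level per kb, Lrrc8b was the highest of the 5 genes in both Setdb1 AKO libraries, with means of 396 for Lrrc8b, 166 for Lrrc8a, 127 for Lrrc8c, 47.7 for Lrrc8d and 0.374 for Lrrc8e. In control BAT the order was Lrrc8a at 165, Lrrc8c at 132, Lrrc8d at 34.0, Lrrc8b at 30.6 and Lrrc8e at 0.491. In that order Lrrc8d and Lrrc8b did not differ beyond their spread, with 36.7 and 31.3 for Lrrc8d and 25.4 and 35.7 for Lrrc8b. Lrrc8b lay above 86.8% and 85.2% of tested protein-coding genes by level per kb in the Setdb1 AKO libraries, against 31.01% and 37.8% in the control libraries.

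The cultured cells had another order. In 4-OHT cells Lrrc8a stood at 318 per kb, Lrrc8b at 237, Lrrc8c at 103, Lrrc8d at 85.5 and Lrrc8e at 10.8, and in ETOH cells Lrrc8a stood at 312, Lrrc8c at 102, Lrrc8b at 94.0, Lrrc8d at 65.0 and Lrrc8e at 20.4. Lrrc8b was thus the second highest in 4-OHT cells and the third in ETOH cells, with 31.4% of the summed level in 4-OHT cells and 15.8% in ETOH cells. In siSetdb1 cells the means per kb were 73.5 for Lrrc8d, 67.2 for Lrrc8b, 51.0 for Lrrc8a, 11.5 for Lrrc8c and 1.23 for Lrrc8e, and in siNC cells they were 75.4 for Lrrc8d, 46.5 for Lrrc8a, 30.1 for Lrrc8b, 9.41 for Lrrc8c and 3.82 for Lrrc8e. The libraries of siSetdb1 cells overlapped for Lrrc8d (65.5 and 81.4) and Lrrc8b (53.6 and 80.8), and for Lrrc8b and Lrrc8a (55.3 and 46.8). Lrrc8b made up 28.8% and 36.3% of the summed level in siSetdb1 cells and 18.2% in siNC cells. The 3 tables were normalised separately, so levels are set against each other only within an experiment.

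**Figure D3:**
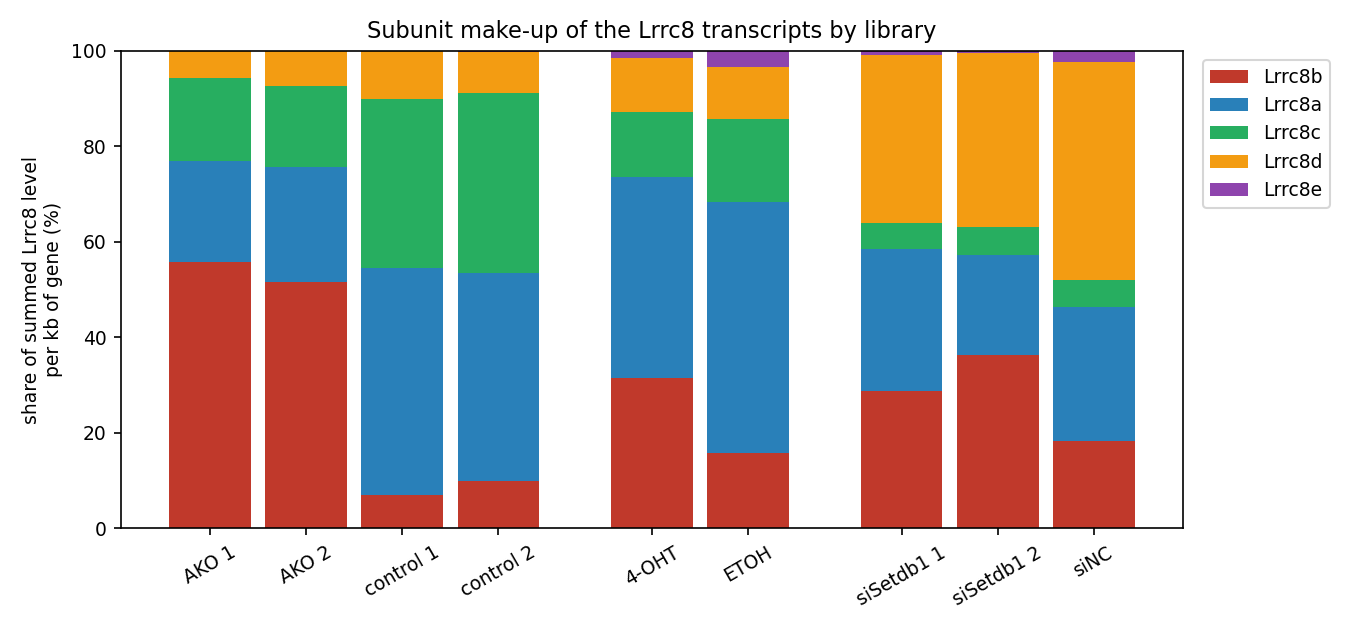
Share of the summed Lrrc8 level per kb, in percent, taken by each gene in each of the 9 libraries, with bars stacked to 100%. The Lrrc8b segment covers 55.8% and 51.5% of the Setdb1 AKO bars and at most 9.85% of the control bars. It is larger in the 4-OHT and siSetdb1 bars than in the ETOH and siNC bars. The shares rest on Lrrc8a counts that are uncertain where it overlaps Gm28035.

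Ratios between the paralogs within a library do not depend on how libraries were scaled. The ratio of Lrrc8b to Lrrc8c, its nearest neighbour in the array, was 3.21 and 3.04 per length in the Setdb1 AKO libraries, against 0.199 and 0.261 in the control libraries, a 13.7-fold difference. The ratio of Lrrc8b to Lrrc8d was 9.75 and 7.06 in the Setdb1 AKO libraries, against 0.691 and 1.14 in the controls, a 9.34-fold difference. Against the unlinked Lrrc8a it was 2.65 and 2.13 in the Setdb1 AKO libraries and 0.148 and 0.226 in the controls, a 12.99-fold difference. Both knockout libraries were above both controls in all 3 ratios, where the exact permutation p cannot go below 0.333. In the cells the same ratios were 2.52-fold, 1.92-fold and 2.47-fold higher in 4-OHT than in ETOH over Lrrc8c, Lrrc8d and Lrrc8a, and 1.81-fold, 2.26-fold and 2.00-fold higher in siSetdb1 than in siNC.

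Within 500 kb of an Lrrc8 start in the array, 15 other genes were listed and 7 could be tested in BAT. None of the 7 passed by limma, where 1.68% of all genes tested did, and none had an unadjusted p under 0.05, where 17.7% did. The log2 fold changes of the 7 ran from -0.60 to 0.83 with a median of 0.43. The upstream side holds guanylate-binding protein genes, which are interferon-inducible GTPases. The nearest tested gene upstream, Gbp11, had 14.4 and 23.7 normalised counts in Setdb1 AKO BAT, against 29.4 and 9.13 in control BAT (log2 fold change 0.15, adjusted p = 0.929 by limma). In siSetdb1 cells Gbp11 had 329 and 263 normalised counts, against 167 in siNC cells (log2 fold change 0.82, unadjusted p = 0.00209, adjusted p = 0.560 by limma). Of 5 neighbours tested there none was called, where 0.0394% of all genes tested were. An unadjusted limma p under 0.05 was reached by 3 of the 5, a larger part than the 5.06% of all genes. The median log2 fold change of the 5 was 0.74, beside -0.003 over all genes, and the cause was not tested. Of 5 measured in the 4-OHT experiment, Gbp6 was at least 2-fold higher, at a log2 ratio of 1.10. On the far side, Zfp326, a zinc finger gene, had a log2 fold change of -0.24 in BAT (adjusted p = 0.479 by limma).

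The lincRNA gene Gm32051, named after its values were seen, lies just upstream of Lrrc8b on the same strand, starts at position 105409367 and ends at position 105415670, inside the promoter window printed for Lrrc8b. It had 13.4 and 6.19 normalised counts in Setdb1 AKO BAT and was at 0 in both control libraries, and it was below the filter on low values and not tested. In cells it had 1.02 normalised counts in 4-OHT and 0.980 in ETOH, and it was at 0 in both siSetdb1 libraries and at 2.96 in siNC.

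**Figure D4:**
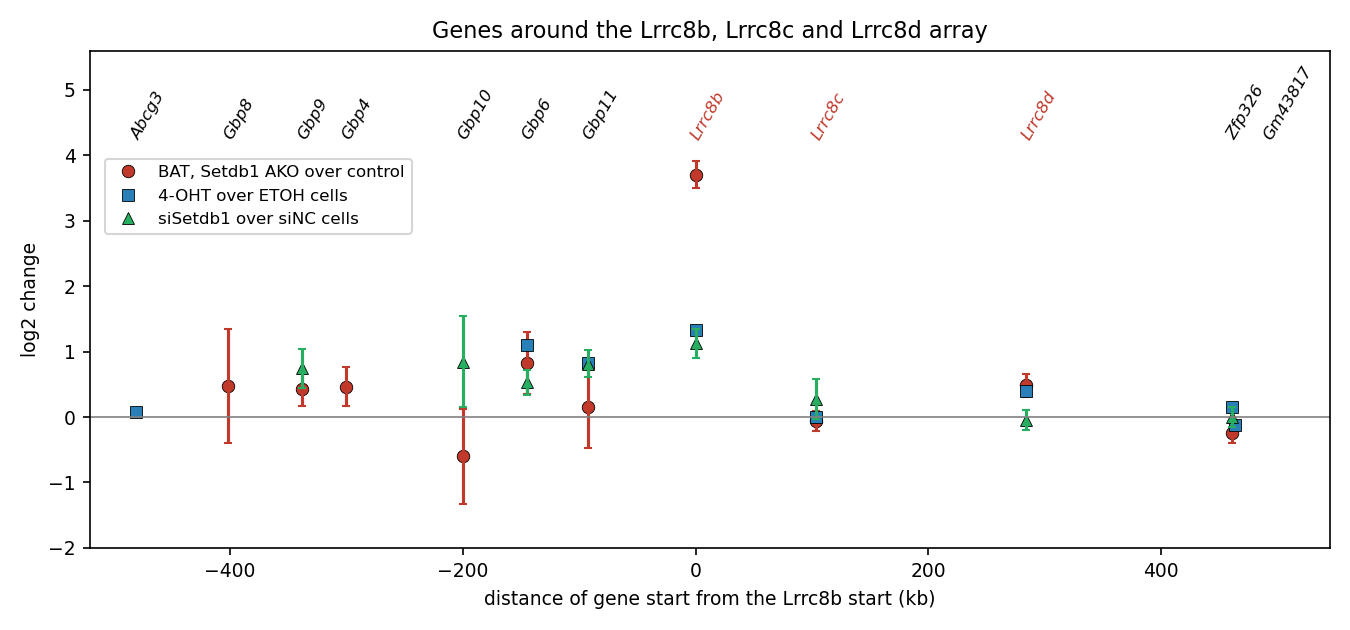
Log2 change of each tested gene against the distance of its start from the Lrrc8b start in kb, for BAT (red), 4-OHT (blue) and siRNA (green); bars are 1 SE from limma, and 4-OHT has none with 1 library a group. In BAT Lrrc8b stood at 3.71, with Lrrc8c at -0.06 and Lrrc8d at 0.49 downstream and the other tested genes between -0.60 and 0.83.

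At the Lrrc8a locus 27 of 41 neighbours were tested in BAT and none was called by limma, where 1.68% of all genes tested were. Of these 27 neighbours, 3 had an unadjusted p under 0.05, where 17.7% of all genes reached that level. The nearest were the antisense gene 1700084E18Rik, which overlaps Lrrc8a (log2 fold change 0.33, adjusted p = 0.787), and Phyhd1 (log2 fold change -0.70, adjusted p = 0.326). At the Lrrc8e locus 14 of 30 neighbours were tested in BAT and none was called by limma, with 3 at an unadjusted p under 0.05 beside the same 17.7%. The nearest were Prr36 (log2 fold change 0.15, adjusted p = 0.936) and Map2k7, a stress kinase kinase gene (log2 fold change -0.02, adjusted p = 0.962). None of the neighbours of either locus was called in the siRNA experiment, where 0.0394% of all genes tested were. There 3 of 28 near Lrrc8a and 0 of 12 near Lrrc8e had an unadjusted limma p under 0.05, beside 5.06% of all genes.

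The genes whose pattern was most like that of Lrrc8b were found by the root mean square difference in log2(normalised count + 1), relative to the controls of each experiment, over 9 libraries and 11353 genes. The 5 closest were Resf1 at 0.336, Sycp3 at 0.481, Ryr2 at 0.529, St6galnac5 at 0.545 and Pcdh19 at 0.623, on chromosomes 6, 10, 13, 3 and X. Resf1, a regulator of retroelement silencing, averaged 12830 normalised counts in Setdb1 AKO BAT and 1235 in control BAT, 21625 in 4-OHT and 4839 in ETOH cells, and 1033 in siSetdb1 and 443 in siNC cells. Sycp3, a component of the meiotic synaptonemal complex, averaged 1481 normalised counts in Setdb1 AKO BAT and 72.4 in control BAT, 181 in 4-OHT and 36.3 in ETOH cells, and 88.4 in siSetdb1 and 46.4 in siNC cells. Ryr2, a calcium release channel, averaged 93.3 in Setdb1 AKO BAT and 7.73 in control BAT, and St6galnac5, a sialyltransferase, averaged 222 in Setdb1 AKO BAT and 15.2 in control BAT. Pcdh19, a protocadherin, averaged 1352 in Setdb1 AKO BAT and 115 in control BAT, but 3846 in 4-OHT and 3530 in ETOH cells, so its likeness rests on BAT.

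Other genes of anion conduction and cell volume were read from lists. In BAT 1.68% of all genes tested were called, so a list of this size with no call is near that share. Of 17 other anion channel genes tested in BAT none was called by limma, with a median log2 fold change of -0.01 beside 0.01 over all genes; the smallest p belonged to Ttyh2, a membrane protein of the tweety family (log2 fold change 0.53, adjusted p = 0.184), and Clcn6, a late endosomal chloride and proton exchanger (log2 fold change -0.52, adjusted p = 0.257). Of 13 genes of WNK kinases and cation chloride cotransporters, which set chloride entry and exit when volume changes, none was called by limma, with a median of -0.06. Slc12a2, the sodium, potassium and chloride importer NKCC1, had 833 and 527 normalised counts in Setdb1 AKO BAT, against 880 and 1109 in control BAT (log2 fold change -0.57, adjusted p = 0.278). None of 3 aquaporin genes was called by limma, with Aqp7, the glycerol channel of fat cells, at a log2 fold change of -0.43 (adjusted p = 0.247). Panx1, an ATP release channel, was the 1 pannexin gene tested, at a log2 fold change of 0.63 (adjusted p = 0.566).

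Of 10 genes for organic osmolytes, the small solutes that leave swollen cells through the channel, 1 rose and 1 fell in BAT, where 1% of all genes tested were called higher and 0.677% lower. Slc5a3, the sodium-coupled myo-inositol importer, had 211 and 283 normalised counts in Setdb1 AKO BAT, against 863 and 667 in control BAT. It fell by 1.63 on the log2 scale (SE 0.22, adjusted p = 0.0214 by limma), and the call was lost without control 1 (adjusted p = 0.235) or control 2 (adjusted p = 0.163). Slc5a3 overlaps Mrps6 on the same strand, and Mrps6 had a log2 fold change of -0.23 (adjusted p = 0.572). Isyna1, the enzyme that makes inositol phosphate from glucose phosphate, had 836 and 1174 normalised counts in Setdb1 AKO BAT, against 438 and 389 in control BAT. It rose by 1.26 on the log2 scale (SE 0.20, adjusted p = 0.0351 by limma), and the call was lost without Setdb1 AKO 2 (adjusted p = 0.0815), control 1 (adjusted p = 0.247) or control 2 (adjusted p = 0.301). Both calls were also lost with no filter on low values (adjusted p = 0.221 for Slc5a3 and 0.234 for Isyna1). The other 8 did not pass, with log2 fold changes from -0.39 to 0.10.

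Of 19 genes between the insulin receptor and AKT, the signalling that LRRC8A is known to promote in fat cells, none was called by limma in BAT, with a median log2 fold change of 0.13. Foxo1, a transcription factor that AKT inhibits, had 1835 and 2014 normalised counts in Setdb1 AKO BAT, against 3637 and 2991 in control BAT (log2 fold change -0.78, SE 0.16, adjusted p = 0.0702). Irs1 and Irs2, the adaptors of the insulin receptor, had log2 fold changes of -0.74 (adjusted p = 0.109) and -0.59 (adjusted p = 0.144). Of 7 genes of cGAMP transport and STING signalling none was called by limma, with a median of 0.15. Over all genes tested in BAT 1.68% were called, so no call among 19 or 7 genes is near that share. Irf3, the transcription factor that STING signalling activates, had a log2 fold change of -0.28 (adjusted p = 0.398), and Tmem173, which encodes STING, had a log2 fold change of 0.48 (adjusted p = 0.505). In the siRNA experiment no gene of these lists was called by limma, where 0.0394% of all genes tested were. In the 4-OHT experiment none was at least 2-fold higher or lower, as 2.94% of all genes were.

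**Figure D5:**
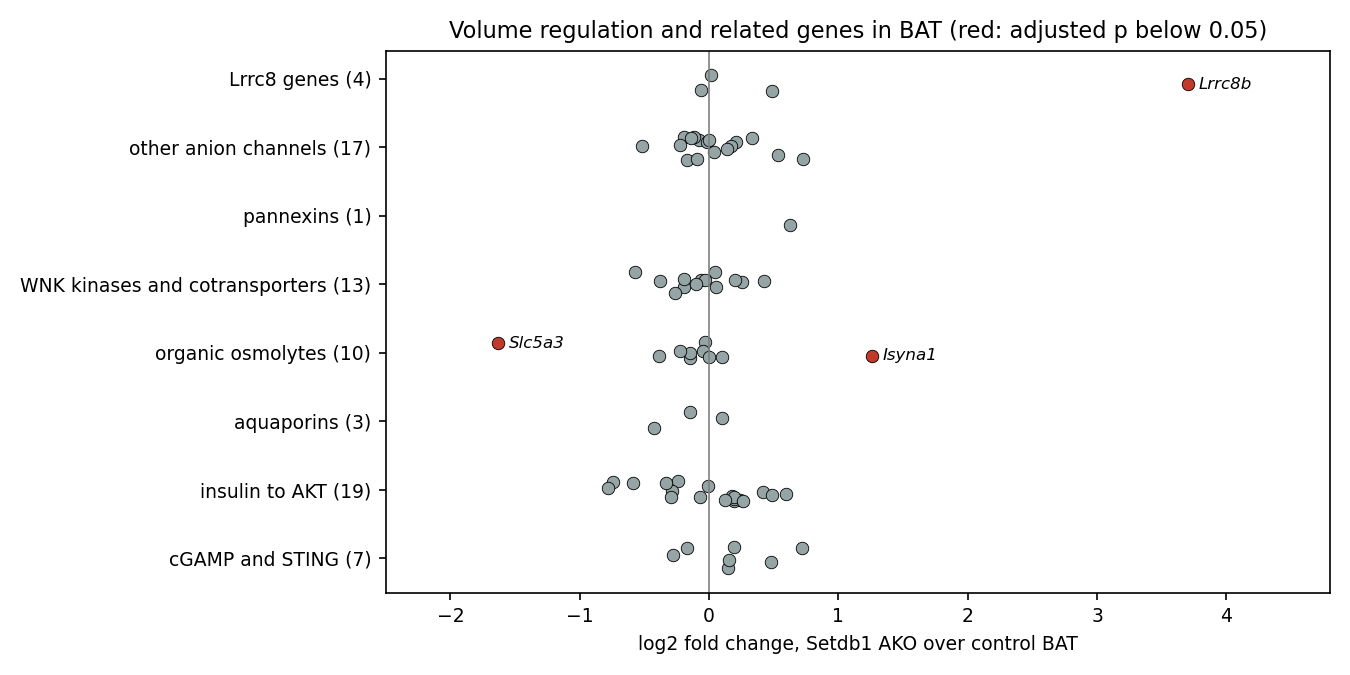
Log2 fold change in Setdb1 AKO over control BAT for the tested Lrrc8 genes and the genes of 7 lists, with the number tested in brackets; red points passed an adjusted p of 0.05 and the vertical scatter within a row carries no value. Lrrc8b at 3.71, Isyna1 at 1.26 and Slc5a3 at -1.63 are the red points, and the remaining genes lie nearer to 0.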

How the data were processed

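The 9 libraries were made from poly(A) mRNA with NEBNext Ultra II chemistry, per the labels' protocols. The submitters' processing notes name the build GRCm38 (mm10), DESeq2 1.36.0, featureCounts 2.0.3, STAR 2.7.10a and Trimmomatic 0.39; the annotation release, strand setting and handling of multi-mapped reads are not given in the sources used here. The deposited BAT and siRNA tables hold a signal per gene, the read count times 1 factor per library. For 4-OHT and ETOH, a raw count, a scaled count and an FPKM, which the authors scaled for length and depth, were deposited. Each table also holds a log2 fold change and a p-value with its adjusted form, deposited by the authors and printed only where named as theirs.

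Dividing each column by the value of 1 read gave whole numbers, within 0.05 reads, for 99.9% to 100% of values in each BAT and siRNA library. The siNC library had the same reads in all 19381 genes of both siRNA tables, which were joined through it. The normalised counts are the deposited scale; 24 symbols turned into dates were restored. Replicates of 1 group differed beyond counting noise (chi-square per degree of freedom 55.1 for Setdb1 AKO, 27.9 for control and 9.02 for siSetdb1).

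BAT and siRNA were tested with limma 3.58.1 (lmFit and eBayes with trend, two-sided) on log2(normalised count + 1), which understates changes of low genes, with Benjamini-Hochberg adjustment over all genes tested at 0.05. Genes needed 10 normalised counts in 2 BAT libraries or in 1 siRNA library. 4-OHT ratios used TMM-scaled CPM (counts scaled to library size) with a prior count of 2, for genes with 50 counts in 1 library. The median log2 change of all genes was 0.01 in BAT, 0.01 in 4-OHT and -0.003 in siRNA. Scripts were tested on simulated data. Alternatives included edgeR 4.0.16 and DESeq2 1.42.0 on recovered reads, other scalings, pseudocounts and filters, a replicate block and leaving out each library. Intervals on counts cover counting error only.

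The Lrrc8 genes, the 15 gene lists and the rules were chosen with earlier results of these data known. Named genes are the Lrrc8 genes, Setdb1, list members called in BAT or siRNA and otherwise up to 4 of smallest p in BAT, called neighbours and the nearest tested one on each side of each locus, and the 5 genes most like Lrrc8b. Dcn, Gbp6, Gm32051 and the overlapping Mrps6 and Gm28035 were named outside that rule, after their values were seen.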

Additional observations from a re-analysis of the deposited data

Results flagged for a closer look

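The following genes differed in direction between experiments, with every library of 1 group moving one way and every library of the other the opposite way; these differences were not tested. Pi16 had a log2 change of 2.87 in BAT and -1.23 in siSetdb1 cells, a difference of 4.10. The siRNA value of Pi16 rests on 7.09 and 6.11 normalised counts in siSetdb1 cells, against 16.8 in siNC cells (SE 0.82, adjusted p = 0.941 by limma). In the siRNA experiment 33.8% of all genes tested were lower in both siSetdb1 libraries than in siNC and 34.1% were higher in both. Slc5a3 had a log2 change of -1.63 in BAT, 0.14 in siSetdb1 cells and 0.09 in 4-OHT cells, differences of -1.77 and -1.72. Isyna1 had a log2 change of 1.26 in BAT, -0.16 in siSetdb1 cells and -0.32 in 4-OHT cells, differences of 1.42 and 1.58. The siRNA values of Slc5a3 (SE 0.12, adjusted p = 0.947 by limma) and Isyna1 (SE 0.17, adjusted p = 0.952 by limma) did not pass. The 4-OHT values of both genes come from 1 library a group, where any unequal pair goes one way. Groups hold at most 2 libraries, so single libraries that stand far from their group could not be looked for.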

How the results depend on the processing

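Of 151 alternatives computed for the Lrrc8 genes, their shares and the counts of calls, 131 were labelled the same. For tested values this means the same sign and the same side of the threshold. For values with no test it means a move within the replicate spread or counting interval. For counts of calls it means a count within a fixed fold of the main count. Of all 151, 8 had another sign than the value reported, all of values near 0: the Lrrc8a and Lrrc8c values in BAT given next, Lrrc8d in siRNA without siSetdb1 1 (0.11), Lrrc8a (-0.037) and Lrrc8c (-0.062) in 4-OHT with CPM without TMM, Lrrc8c in 4-OHT with DESeq2 size factors (-0.014), and the BAT share of Lrrc8e without control 2 (0.050 points). Lrrc8b in BAT kept a log2 fold change of 3.71 with no filter on low values but its adjusted p became 0.0729; without each library in turn it ran from 3.46 to 3.95, past the threshold each time. Lrrc8a in BAT ran from -0.044 to 0.071 and Lrrc8c from -0.15 to 0.018 without each library, changing sign without Setdb1 AKO 2 (-0.022 for Lrrc8a and 0.018 for Lrrc8c) and, for Lrrc8a, without control 2 (-0.044). In siRNA, Lrrc8b passed at 1.16 by edgeR (adjusted p = 0.00211) and at 1.13 with a filter of 50 (adjusted p = 0.00887); without either siSetdb1 library it was 0.83 or 1.42, values with no test. Genes called in BAT numbered 243 by limma, 250 by edgeR on recovered reads, 651 by DESeq2, 11 with no filter and 22 to 157 without each library (157 and 92 without Setdb1 AKO 1 and 2, 24 and 22 without control 1 and 2). Genes called in siRNA numbered 6 by limma, 37 by edgeR, 11 by DESeq2, 19 on TMM-scaled counts, 29 with a filter of 50 and 0 by limma with no filter, where 1352 had an unadjusted p under 0.05. For these tools, scalings and filters the cause was not tested. With reads not divided by length, the BAT shares differed by -15.6 points for Lrrc8a, -23.4 for Lrrc8c and -5.96 for Lrrc8d. On that scale Lrrc8c led control BAT at 42.9%, before Lrrc8a at 30.1%, Lrrc8d at 18.1% and Lrrc8b at 8.71%. Lrrc8b led Setdb1 AKO BAT on that scale as well, at 53.7%. Shares without each library differed by 43.1 to 47.3 points for Lrrc8b, -24.9 to -21.0 for Lrrc8a, -20.5 to -18.2 for Lrrc8c, -3.68 to -2.09 for Lrrc8d and -0.22 to 0.05 for Lrrc8e. With replicate number as a block, Lrrc8b in BAT was at 3.71 (adjusted p = 1.47e-04 by limma) and 299 genes were called. Deviations of same-numbered libraries had r = -0.015 over 14466 genes. That value shows no strong effect shared by same-numbered libraries, but it cannot exclude that they were paired. The block changed no call on an Lrrc8 gene. At this depth Lrrc8e in BAT, at 0 to 4 reads, could not be compared.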
